A study of Mus musculus with 22 samples.

Results

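9 genes that mark neurons around the nucleus accumbens rather than its own principal cells were followed through 22 bulk RNA-seq libraries of mouse accumbens: Slc17a7, Neurod2, Neurod6, Tbr1, Emx1, Fezf2, Slc30a3, Slc17a6 and Zic1. They were taken by name from the deposited count table, which lists 24061 genes. All 9 were found, and all 9 were among the 14564 genes that passed the filter on low counts. The libraries came from male C57BL/6J mice, conventionally raised and 7 to 9 weeks old. The 4 groups were antibiotic mice given morphine (Abx_Morphine, 5 libraries), antibiotic mice given saline (Abx_Saline, 6), mice with a normal microbiome on plain water given morphine (H2O_Morphine, 5) and such mice given saline (H2O_Saline, 6). The antibiotics were non-absorbable and depleted the gut microbiome, and morphine was given at 20 mg/kg per day for 7 days. The question addressed here is how much of these transcripts each piece of tissue held, and whether that differed between treatments.

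The accumbens is the ventral part of the striatum. Its principal cells are inhibitory projection neurons that release GABA, and its excitatory input arrives on axons whose cell bodies lie elsewhere, in cortex, hippocampus, amygdala and thalamus. Most messenger RNA of a neuron stays in or near its cell body. Excitatory neurons of the cortex and of related areas load glutamate into vesicles with VGLUT1, encoded by Slc17a7, while those of thalamus, hypothalamus and brainstem mostly use VGLUT2, encoded by Slc17a6. Neurod2, Neurod6, Tbr1, Emx1 and Fezf2 encode transcription factors of the dorsal forebrain, and Slc30a3 encodes ZnT3, which fills the vesicles of many cortical glutamate neurons with zinc. Zic1 encodes a zinc-finger transcription factor found in the septum and other medial forebrain areas.

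The libraries held between 11789713 and 19755139 counts, of which 9357299 to 15330947 were assigned to genes. Values are given as CPM, counts assigned to genes scaled to library size with TMM factors. Transcripts of the accumbens were abundant in every library. Penk, the precursor of enkephalins, ran from 705 to 1630 CPM, Drd1a, a dopamine receptor gene, from 138 to 319 CPM, and Drd2, another dopamine receptor gene, from 68.5 to 192 CPM. The labels do not say that each library came from a separate animal, so p-values measure the spread between these libraries, which may be technical.

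Sequences just upstream of the start sites are shown for 4 genes: both vesicular glutamate transporters, which behaved differently across libraries, Neurod2, which followed Slc17a7 closely, and Zic1. They are RefSeq windows of GRCm38.p6 from 250 bases before to 50 bases after the annotated start. Capitals mark E-boxes (CANNTG, which reads the same on both strands), the kind of site that basic helix-loop-helix factors such as Neurod2 and Neurod6 bind.
Slc17a7, chr7:45163671-45163970, plus strand: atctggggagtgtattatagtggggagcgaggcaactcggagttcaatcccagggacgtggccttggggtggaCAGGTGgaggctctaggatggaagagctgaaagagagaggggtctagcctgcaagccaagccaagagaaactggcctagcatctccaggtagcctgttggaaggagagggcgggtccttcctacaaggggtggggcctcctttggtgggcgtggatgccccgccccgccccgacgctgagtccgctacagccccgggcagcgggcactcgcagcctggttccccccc
Slc17a6, chr7:51621580-51621879, plus strand: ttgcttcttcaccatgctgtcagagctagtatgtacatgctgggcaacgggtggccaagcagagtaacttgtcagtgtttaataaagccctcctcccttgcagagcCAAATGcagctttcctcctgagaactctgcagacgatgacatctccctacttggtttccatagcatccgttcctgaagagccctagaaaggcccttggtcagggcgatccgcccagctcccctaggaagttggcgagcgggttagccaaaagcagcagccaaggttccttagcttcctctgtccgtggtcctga
Neurod2, chr11:98329596-98329895, minus strand: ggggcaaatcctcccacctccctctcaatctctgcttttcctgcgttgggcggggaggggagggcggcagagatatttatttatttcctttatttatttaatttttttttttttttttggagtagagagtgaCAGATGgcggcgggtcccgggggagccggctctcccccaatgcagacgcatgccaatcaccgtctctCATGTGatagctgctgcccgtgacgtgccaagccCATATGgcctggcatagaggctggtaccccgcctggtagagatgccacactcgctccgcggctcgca
Zic1, chr9:91365719-91366018, minus strand: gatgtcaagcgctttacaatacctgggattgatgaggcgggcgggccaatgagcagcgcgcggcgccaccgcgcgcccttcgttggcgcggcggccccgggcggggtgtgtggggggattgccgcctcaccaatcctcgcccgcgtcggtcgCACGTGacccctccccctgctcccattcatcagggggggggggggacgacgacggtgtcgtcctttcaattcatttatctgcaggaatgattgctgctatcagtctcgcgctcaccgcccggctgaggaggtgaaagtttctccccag
RefSeq windows were found for 9 of the 9 genes, 11 windows in all because Slc17a6 and Slc30a3 have a second start. An E-box lay in 8 of the 11 windows, belonging to 7 of the 9 genes, against 72.3% of 32851 mouse promoter windows. The variant CAGATG, which is itself an E-box and was searched on both strands, lay in 2 of the 11 windows, against 17.2% of all windows. These were the Neurod2 window, with its first base at -118 from the start, and the second Slc17a6 window, not shown, at -205. A match describes these letters and is not evidence of binding.

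Slc17a7 varied more between libraries of the same group than almost any other gene. Across all 22 libraries it ran from 3.48 CPM in H2O_Morphine replicate 6 to 1238 CPM in Abx_Saline replicate 5, a 356-fold range. In Abx_Morphine it was at 851, 575, 133, 563 and 267 CPM in replicates 1 to 5. In Abx_Saline the lowest, median and highest values were 73.9, 279 and 1238 CPM. In H2O_Morphine it was at 6.94, 124, 986, 69.5 and 3.48 CPM in replicates 2 to 6. In H2O_Saline the lowest, median and highest values were 8.46, 249 and 594 CPM. Libraries under 10 CPM were found in both water groups, every group held at least 1 library at 594 CPM or more, and the ranges of all 4 groups overlapped. In bulk tissue, fewer cells of a type and less RNA per cell cannot be told apart.

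**Figure D1:**
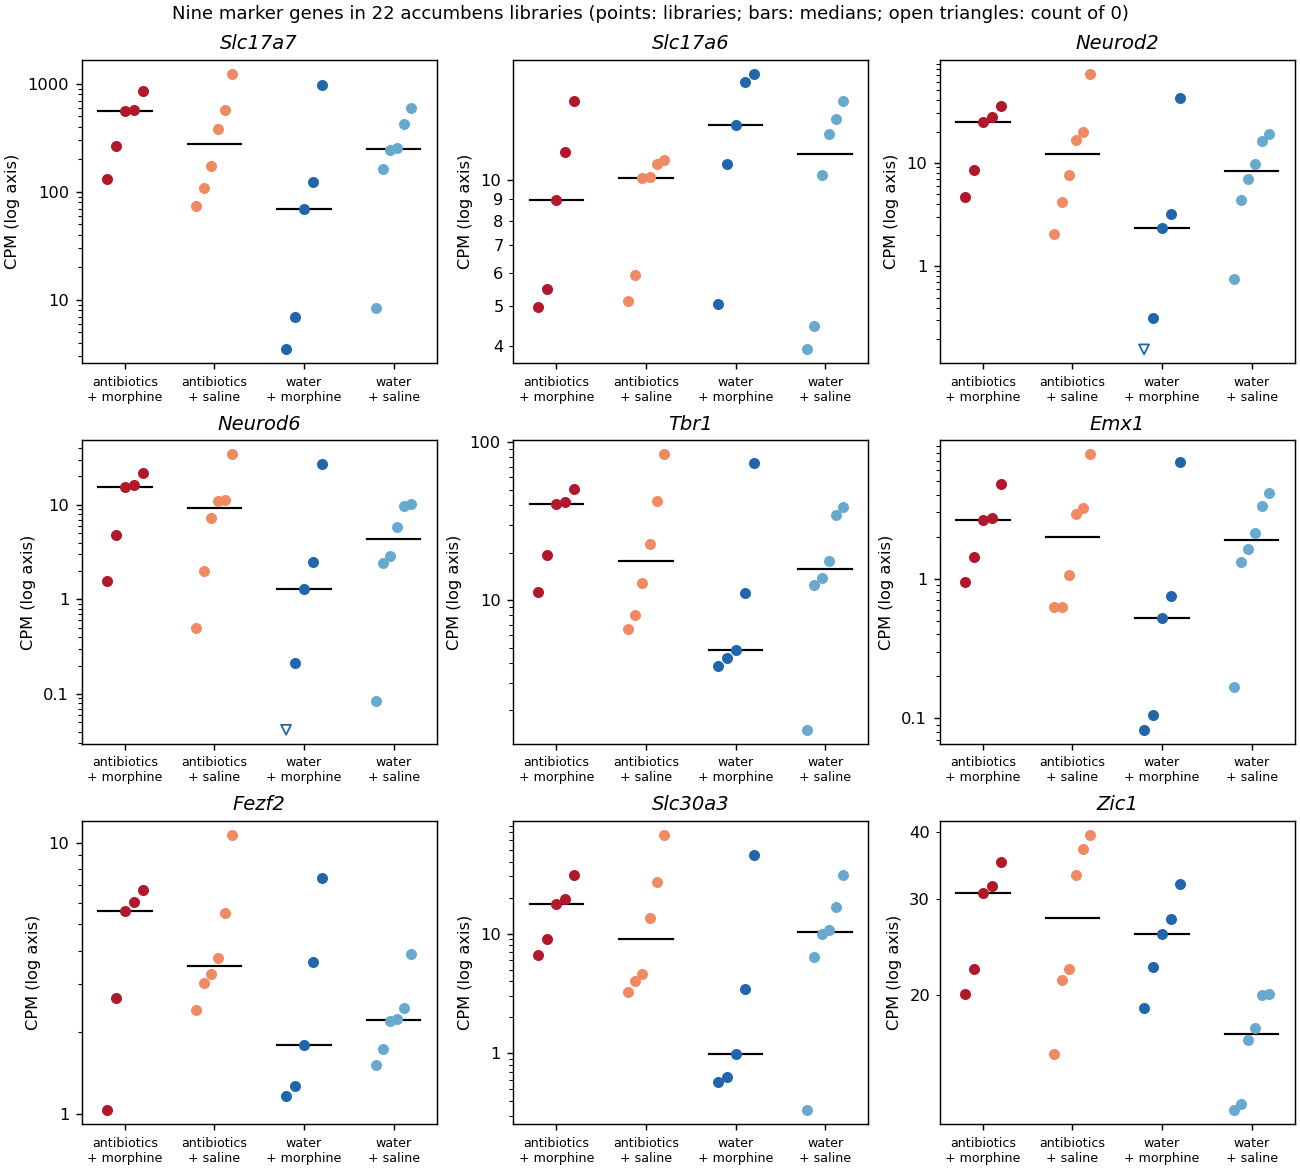
CPM of the 9 genes (log axis, 1 panel per gene) by group, with 1 point per library, black bars for group medians and open triangles for a count of 0, drawn below the lowest value above 0. The 7 cortical markers span overlapping ranges in the 4 groups, wide except for Fezf2 in H2O_Saline (1.51 to 3.88 CPM). Zic1 runs from 12.2 to 20.0 CPM in H2O_Saline and from 15.6 to 39.5 CPM in the other groups.

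The other cortical markers followed a similar order of libraries. Neurod2, a factor of differentiating and mature excitatory neurons, was highest at 72.1 CPM in Abx_Saline replicate 5, and Neurod6, its relative, was highest there too, at 34.3 CPM. Neurod2 was at 35.5, 27.5, 4.67, 24.8 and 8.44 CPM in Abx_Morphine replicates 1 to 5, and at 2.06, 12.1 and 72.1 CPM (lowest, median and highest) in Abx_Saline. It was at 0.316, 3.22, 42.5, 2.34 and 0 CPM in H2O_Morphine replicates 2 to 6, and at 0.754, 8.39 and 19.1 CPM (lowest, median and highest) in H2O_Saline. The groups overlapped, and in H2O_Morphine replicate 4 stood alone at the top. Neither gene had a single count in H2O_Morphine replicate 6, where the 11995527 counts assigned to genes allow up to 0.248 CPM. Tbr1, a T-box factor of deep cortical layers, ran from 1.51 CPM in H2O_Saline replicate 4 to 83.9 CPM in Abx_Saline replicate 5. Slc30a3 ran from 0.335 CPM to 67.1 CPM in those same libraries. Emx1, a homeobox factor of the dorsal forebrain, ran from 0.0828 CPM in H2O_Morphine replicate 6 to 7.79 CPM in Abx_Saline replicate 5. Fezf2, a zinc-finger factor of layer 5 projection neurons, ran from 1.03 CPM in Abx_Morphine replicate 3 to 10.7 CPM in Abx_Saline replicate 5. So 1 library, Abx_Saline replicate 5, was highest for all 7 cortical markers. The 3 libraries with the least Slc17a7 were H2O_Morphine replicates 6 and 2 and H2O_Saline replicate 4. They were also the 3 lowest for Neurod2, Neurod6, Tbr1, Emx1 and Slc30a3, but not for Fezf2. Summed over the 7 markers, the level ran from 159 to 1000 CPM in Abx_Morphine, from 91.7 to 1514 CPM in Abx_Saline, from 9.11 to 1190 CPM in H2O_Morphine and from 12.8 to 699 CPM in H2O_Saline.

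Slc17a6 and Zic1 had another pattern. Slc17a6 ran from 3.94 CPM in H2O_Saline replicate 4 to 18.0 CPM in H2O_Morphine replicate 2, a 4.57-fold range. In Abx_Morphine it was at 8.95, 5.50, 15.5, 4.97 and 11.7 CPM in replicates 1 to 5, and in Abx_Saline its lowest, median and highest values were 5.15, 10.2 and 11.2 CPM. In H2O_Morphine it was at 18.0, 10.9, 13.6, 5.05 and 17.2 CPM in replicates 2 to 6, and in H2O_Saline its lowest, median and highest values were 3.94, 11.6 and 15.5 CPM. The 4 groups overlapped, and each held libraries near 5 CPM. Of the 3 libraries with the least Slc17a7, H2O_Morphine replicates 2 and 6 were the highest for Slc17a6 (18.0 and 17.2 CPM) and H2O_Saline replicate 4 was the lowest. Zic1 ran from 12.2 CPM in H2O_Saline replicate 5 to 39.5 CPM in Abx_Saline replicate 5, a 3.23-fold range. H2O_Morphine replicate 2, with 6.94 CPM of Slc17a7, had 32.0 CPM of Zic1.

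Per kilobase of transcript, which allows levels to be set side by side, Slc17a7 was the most abundant of the 9 with a median of 85.6 CPM per kb. Slc30a3 (4.54), Zic1 (3.98) and Tbr1 (3.96) came next, then Slc17a6 (2.56), Neurod2 (2.55) and Neurod6 (2.49), and then Fezf2 (1.18) and Emx1 (0.986), all as median CPM per kb over 22 libraries. The ranges of neighbouring genes in that order overlapped. Lengths are those of the longest protein-coding transcript in the GENCODE M21 annotation, which need not be the one used in this tissue.

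The spread within groups was set against that of all 14564 genes tested. The SD of log2 CPM around the group means was 2.15 for Slc17a7, 2.13 for Neurod6, 1.99 for Neurod2 and 1.88 for Slc30a3, ranks 1, 2, 3 and 4 of all genes, where the median gene had 0.149. With a smaller prior count in the log, 0.5 in place of 2, their ranks were 4, 1, 2 and 10 in the same order of genes. Tbr1 (SD 1.48) ranked 14, Emx1 (1.40) ranked 19, Fezf2 (0.84) ranked 141 and Slc17a6 (0.70) ranked 235. Zic1, with an SD of 0.39, ranked 1563, yet varied more than 98.0% of the genes within 0.5 log2 units of its own mean level.

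**Figure D2:**
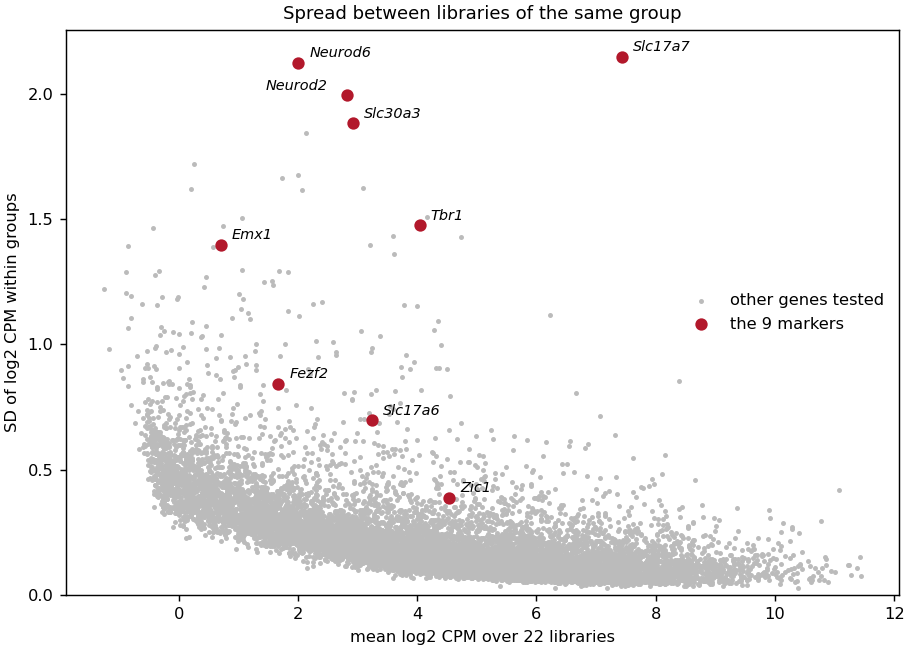
SD of log2 CPM within groups (y axis) against mean log2 CPM over the 22 libraries (x axis) for 14564 genes, with the 9 markers in red. Slc17a7, at an SD of 2.15, stands far above genes of its level, whose median SD is 0.0915, and Zic1, at 0.39, is near the upper edge of its own.

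Within groups, the 7 cortical markers rose and fell together. Correlations were computed on log2 CPM after removing group means, over 36 pairs of the 9 genes, with 100000 two-sided permutations within groups and Benjamini-Hochberg adjustment over the 36. All 21 pairs among the 7 cortical markers passed, with Pearson r between 0.67 and 0.98 and adjusted permutation p between 2.4e-05 and 0.000737. For Slc17a7 and Neurod2, r was 0.97 and Spearman's rho 0.95 (permutation p = 1e-05 for each, the smallest that 100000 permutations can give; adjusted p = 2.4e-05). Leaving out the 2 libraries farthest from the median Slc17a7 left r at 0.98. Over the 21 pairs, r without the 2 farthest libraries lay between 0.59 and 0.98. The pairs share libraries and scaling totals and are not independent of each other.

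None of the 15 pairs with Slc17a6 or Zic1 passed. Their r lay between -0.19 and 0.42, and the smallest adjusted permutation p was 0.0742, for Slc17a6 with Zic1 (r = 0.42; rho = 0.37, adjusted p = 0.131; r = 0.37 without the 2 farthest libraries). Slc17a7 and Slc17a6, the vesicular transporter pair, had r = 0.12 and rho = -0.06 (adjusted permutation p = 0.672 and 0.91). Slc17a7 and Zic1 had r = 0.18 and rho = 0.06 (adjusted permutation p = 0.518 and 0.91). The 9 genes therefore fell into a set of 7 that moved together and a further 2 for which no relation to the 7 was detected. A p that misses the threshold does not show that there is none.

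**Figure D3:**
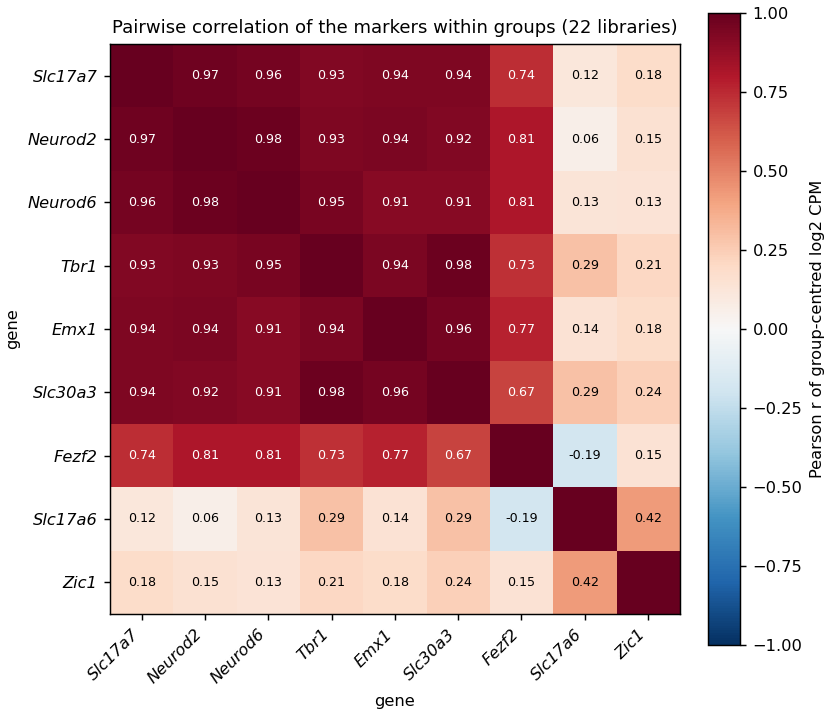
Pearson r of log2 CPM after removing group means, for each pair of the 9 genes over 22 libraries (red positive, blue negative). The block of 7 cortical markers holds values of 0.67 to 0.98, while the lines of Slc17a6 and Zic1 hold values of -0.19 to 0.42.

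**Figure D4:**
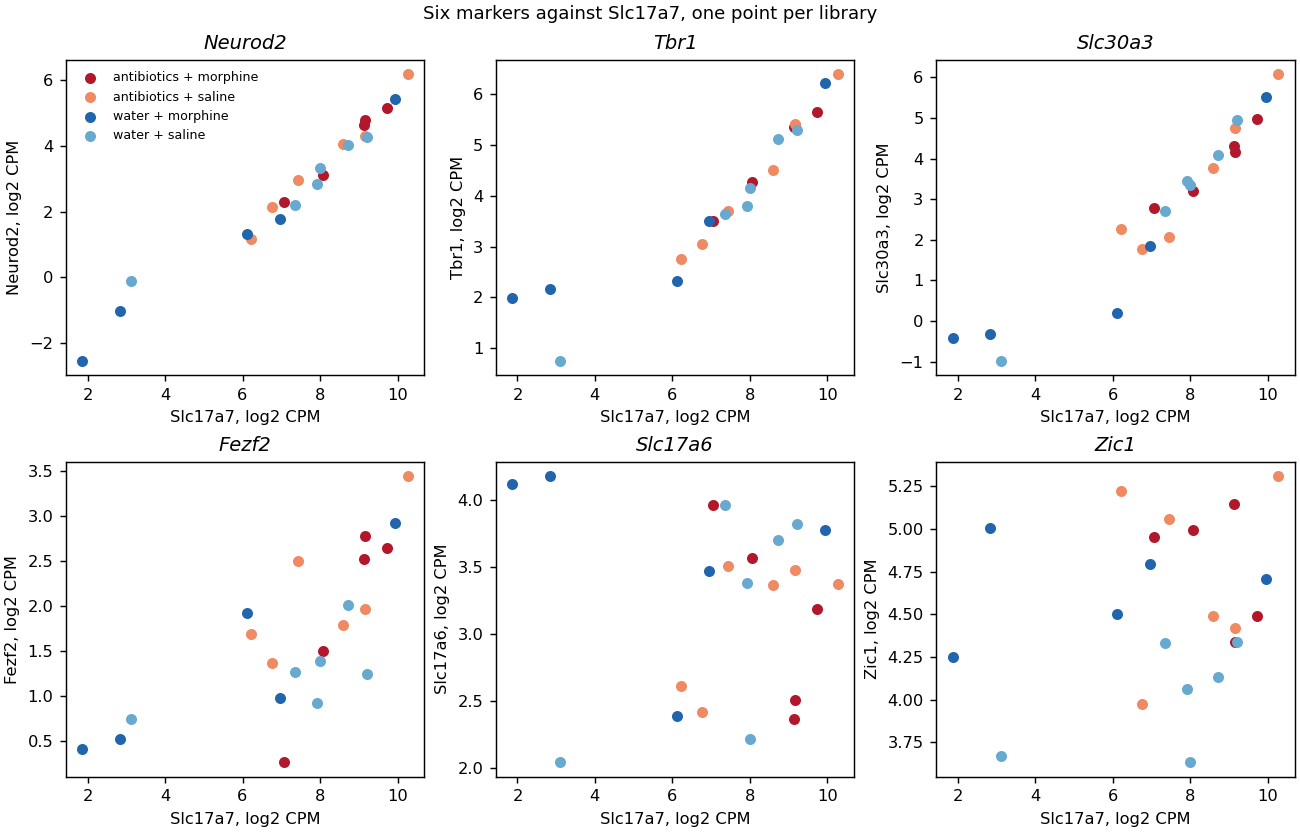
Log2 CPM of 6 markers (y axes) against log2 CPM of Slc17a7 (x axes), 1 point per library, coloured by group. Neurod2, Tbr1 and Slc30a3 form narrow rising bands in which the groups mix, Fezf2 a wider one, and Slc17a6 and Zic1 none.

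The ratio of each marker to Slc17a7 showed how tightly they kept step. In the 17 libraries with at least 1000 counts of Slc17a7, Tbr1 had 57.0 to 89.9 counts per 1000 counts of Slc17a7, a 1.58-fold range, while Slc17a7 itself spanned 108 to 1238 CPM in those libraries. Neurod2 had 25.9 to 58.2, Slc30a3 23.3 to 54.2, Neurod6 11.9 to 41.8 and Emx1 3.59 to 10.02 counts per 1000. Fezf2 had 3.71 to 31.7 counts per 1000, an 8.53-fold range. In the 5 libraries with fewer Slc17a7 counts, Fezf2 had 41.2 to 333 and Emx1 10.9 to 23.8 counts per 1000. Both lay above their ranges in the 17, though Emx1 had as few as 1 count in those 5. Tbr1 had 69.5 to 1095, Slc30a3 14.1 to 167, Neurod2 0 to 89.1 and Neurod6 0 to 30.3, overlapping their ranges in the 17. Pooled ratios in the 5 and the 17 were 63.6 and 8.96 for Fezf2, 123 and 70.5 for Tbr1. They were 13.3 and 6.21 for Emx1, 42.4 and 41.8 for Slc30a3. For Neurod2 they were 33.5 and 41.7, and for Neurod6 12.8 and 24.3. The pooled ratios of Fezf2, Tbr1 and Emx1 were thus higher in those 5 libraries than in the 17. The 5 were picked by low Slc17a7 counts, which are also the divisor, so the split itself raises such ratios. Pooled ratios also rose for Slc17a6 (279 in the 5, 23.1 in the 17) and Zic1 (706 and 53.9). Whether any marker shrank less than Slc17a7 was not tested.

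Genes outside the 9 with the patterns closest to theirs were found by r over the 22 libraries, as a description without a test, since all share libraries and totals. Closest to Slc17a7 were Cplx3 (r = 0.97), a complexin of synaptic vesicle release, Ctgf (0.96), a secreted matrix protein that marks the deepest cortical layer, and Dkkl1, Medag, Nr4a2, Sel1l3, Prdm8 and Nov (0.92 to 0.94). Nr4a2 encodes a nuclear receptor found in deep cortex and claustrum. Ctgf ran from 2.57 to 62.1 CPM and Cplx3 from 0.842 to 35.8 CPM. The genes that ran most against Slc17a7 were Mttp (r = -0.88), Rab9b (-0.85), Vat1l (-0.84) and Npy2r (-0.83), the last encoding a receptor for neuropeptide Y.

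Among the genes closest to Slc17a6 were Plcxd2 (r = 0.92) and Vamp1 (0.91), a vesicle fusion protein, followed by Kctd9, Rab11fip5, Akap12, Plcb4 and Ank1 (0.88 to 0.90). Closest to Zic1 was its neighbour Zic4 (r = 0.93), followed by Pnoc (0.86), the precursor of nociceptin, and Lats2, Fzd1, Tspan33, Ret, Zfp423 and Glp1r (0.82 to 0.84). Zic1 and Zic4 overlap on opposite strands in the GENCODE annotation, and the sources used here do not give the strand setting of the counting, so reads of the overlap cannot be told apart. Slc30a3 likewise overlaps Dnajc5g on the opposite strand.

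Other genes of the same neurons were set beside these patterns. Of 31 measured genes of cortical excitatory neurons outside the 9, 21 (67.7%) had r above 0.5 with Slc17a7 and 2 had r below -0.5, with a median of 0.76, beside 10.6% above 0.5 and a median of -0.05 over all genes tested. Among the most abundant of them, Sv2b, a vesicle protein, had r = 0.82, while Arpp21, which is also abundant in striatal neurons, had r = -0.47. Of 19 measured septal and medial forebrain genes, 1 had r above 0.5 with Slc17a7 and 6 (31.6%) had r below -0.5. Over all genes tested, 8.23% lay below -0.5. Of the 6, Chat (-0.70), Slc5a7 (-0.73) and Lhx8 (-0.68) are also on the list of striatal interneurons, of which 47.1% lay below -0.5. The count is therefore not one of septal cells alone. The median r of the septal list was 0.39 with Zic1 and -0.03 with Slc17a7. Calb2, a calcium-binding protein on the septal list, had r = 0.68 with Zic1 and 0.62 with Slc17a6. Chat and Slc5a7, both of cholinergic neurons, had r = -0.26 and -0.28 with Zic1 and -0.04 and -0.05 with Slc17a6, and Sox1, a transcription factor, had 0.39 and 0.09. Of 10 measured thalamic and hypothalamic genes, none had r above 0.5 with Slc17a7 and 4 (40%) had r below -0.5. Of those 4, Gbx2 (-0.60) and Trh (-0.76) are also on the list of striatal interneurons. The median r of the thalamic and hypothalamic list with Slc17a6 was 0.14.

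Transcripts of the striatum's own projection neurons moved against the markers. All 28 measured genes of that list had a negative r with Slc17a7, from -0.75 to -0.10. The mean log2 level of the list had r between -0.45 and -0.63 with each of the 9 genes, and for all 9 the adjusted permutation p was under 0.05 (0.0238 to 0.0493 over 9 tests). By Spearman's rho, which ran from -0.55 to -0.35, none of the 9 passed (adjusted permutation p from 0.0714 to 0.148). For Slc17a7 r was -0.45 and rho -0.35, and without the 2 libraries farthest from its median r was -0.52. For Zic1 r was -0.52 and rho -0.50, and r was -0.41 without its 2 farthest libraries. With library size as the scaling, Zic1 no longer passed (r = -0.48, adjusted permutation p = 0.0583). CPM are shares of a total, so the levels of abundant lists are not independent of each other. Penk was lowest, at 705 CPM, in Abx_Saline replicate 5, the library with the most Slc17a7, and Ppp1r1b, which encodes the signalling protein DARPP-32, was lowest, at 703 CPM, in H2O_Morphine replicate 4, the library with the second most.

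Morphine and antibiotics were then compared with edgeR's quasi-likelihood test on all 14564 genes, with Benjamini-Hochberg adjusted p under 0.05 as the threshold. None of the 9 markers passed in any comparison. For morphine against saline in water mice 0 of 9 passed, where 6.58% of all genes did, and 1 of 9 (Zic1) was under 0.05 unadjusted, as were 22.7% of all genes. DESeq2 called 1, Zic1, and limma-voom none. For morphine against saline in antibiotic mice 0 of 9 passed, where 13% of all genes did. Unadjusted, 0 of 9 were under 0.05, beside 27.6% of all genes. For antibiotics against water under saline 0 of 9 passed, where 1.41% of all genes did, and 1 (Zic1) was under 0.05 unadjusted, as were 17.3% of all genes. DESeq2 again called 1, Zic1, and limma-voom none. For antibiotics against water under morphine 0 of 9 passed, where 18% of all genes did. Unadjusted, 0 of 9 were under 0.05, beside 31.3% of all genes. For the difference between the morphine changes of antibiotic and water mice 0 of 9 passed, where 0.467% of all genes did. Unadjusted, 0 of 9 were under 0.05, beside 12.3% of all genes. In the comparisons other than those named for Zic1, DESeq2 and limma-voom called 0 of the 9. The groups overlapped for every gene in every comparison.

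The spread left wide intervals around the changes of the cortical markers. Slc17a7 had mean levels of 478 ± 282 CPM in Abx_Morphine (SD, n = 5), against 238 ± 421 CPM in H2O_Morphine (SD, n = 5), a log2 change of 0.996 with a 95% interval from -1.36 to 3.35 (edgeR adjusted p = 0.591). Under saline the means were 424 ± 440 CPM in Abx_Saline and 281 ± 204 CPM in H2O_Saline (SD, n = 6 each), a log2 change of 0.59 with an interval from -1.55 to 2.74 (edgeR adjusted p = 0.818). The log2 change with morphine was -0.23 ± 1.07 in water mice and 0.17 ± 1.06 in antibiotic mice (SE), and the difference between those changes was 0.40 ± 1.51 (SE). Without H2O_Morphine replicate 4 the change in water mice was -2.44. The median standard error of the 9 log2 changes was 0.85 for morphine in water mice, against 0.0892 over all genes. Both a rise and a fall therefore lay inside the interval of Slc17a7 in each comparison. As folds, the interval ran from 0.39 to 10.2 for antibiotics under morphine and from 0.34 to 6.66 under saline. For morphine it ran from 0.18 to 4.05 in water mice and from 0.24 to 5.28 in antibiotic mice.

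In antibiotic mice 8 of the 9 log2 changes were above 0 under saline and 8 of 9 under morphine, with Slc17a6 the exception both times (-0.20 and -0.46), beside 51.1% and 50.1% of all genes. The 7 cortical markers vary together, so they do not count as separate observations. Under saline, Neurod6 had a log2 change of 1.09 ± 1.01 (SE; edgeR adjusted p = 0.62), and Fezf2 one of 1.03 ± 0.50 (edgeR adjusted p = 0.302). Under morphine, 1 library decided the calls. H2O_Morphine replicate 4 had 986 CPM of Slc17a7, while the other 4 of its group had 124 CPM or less. Without that library 3 markers passed the edgeR threshold for antibiotics against water under morphine, Neurod2 with a log2 change of 3.67 (adjusted p = 0.0365), Neurod6 with 3.47 (0.0494) and Slc30a3 with 3.49 (0.0443). Over all settings and libraries left out, the highest adjusted p of these genes were 0.753, 0.817 and 0.9. With that library, their log2 changes were 0.98 ± 1.03, 0.83 ± 1.04 and 0.64 ± 1.04 (SE).

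**Figure D5:**
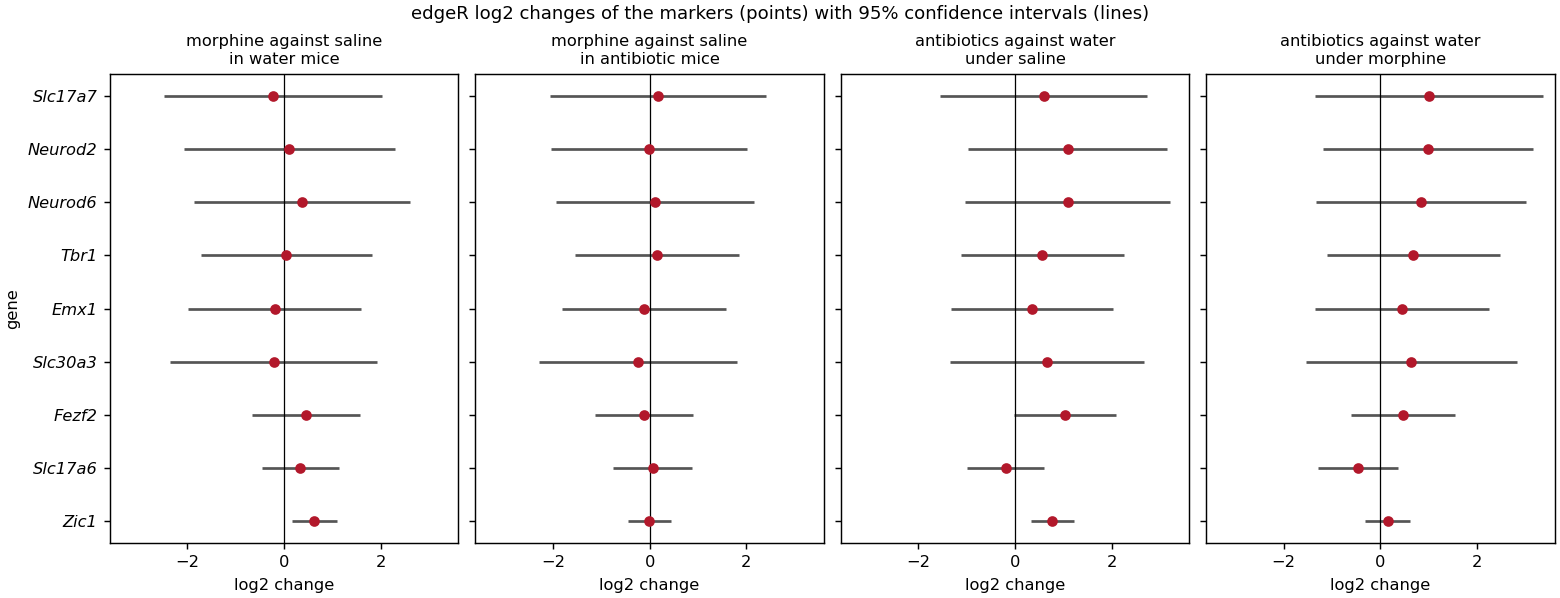
Log2 changes (points) with 95% confidence intervals (lines) from edgeR for the 9 genes in 4 comparisons, first group over second. The intervals of the 7 cortical markers all include 0, and those of Zic1 lie above 0 for morphine in water mice (0.15 to 1.09) and for antibiotics under saline (0.32 to 1.22).

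Zic1 was the marker with the smallest spread and supplied both results under 0.05 unadjusted, a count of 1 in 9 that lay below the share over all genes each time. In H2O_Morphine it was at 32.0, 27.6, 25.9, 22.5 and 18.9 CPM in replicates 2 to 6, against a lowest, median and highest value of 12.2, 16.9 and 20.0 CPM in H2O_Saline. Of the H2O_Morphine libraries 4 lay above every H2O_Saline library, and 1 lay among them. The log2 change was 0.62 ± 0.22 (SE; edgeR adjusted p = 0.101). In the fit of these 2 groups alone the edgeR adjusted p was 0.031, and in DESeq2 it was 0.0341. Over all settings and libraries left out it ran from 0.031 to 0.219.

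Under saline, Abx_Saline had a lowest, median and highest Zic1 of 15.6, 27.8 and 39.5 CPM, against 12.2, 16.9 and 20.0 CPM in H2O_Saline. Of the Abx_Saline libraries 5 lay above every H2O_Saline library, and replicate 3 lay among them. The log2 change was 0.77 ± 0.22 (SE; edgeR adjusted p = 0.0735). In DESeq2 the adjusted p was 0.00966, and without Abx_Saline replicate 3 edgeR's was 0.0288. Over all settings and libraries left out it ran from 0.00966 to 0.175. Both comparisons share the H2O_Saline libraries, whose median Zic1 was the lowest of the 4 groups.

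For Zic1, morphine in antibiotic mice and antibiotics under morphine showed no change past the threshold. In Abx_Morphine it was at 22.3, 20.1, 30.8, 35.2 and 31.7 CPM in replicates 1 to 5, which overlapped both Abx_Saline and H2O_Morphine throughout. The log2 change with morphine in antibiotic mice was 0.00 (-0.46 to 0.45; edgeR adjusted p = 0.995), and that with antibiotics under morphine was 0.15 (-0.32 to 0.62; edgeR adjusted p = 0.702). The difference between the morphine changes of antibiotic and water mice was -0.62 ± 0.31 (SE; edgeR adjusted p = 0.428). Slc17a6 showed log2 changes of 0.33 ± 0.38 with morphine in water mice and 0.06 ± 0.39 in antibiotic mice (SE), within its spread in both.

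The septal and medial forebrain list did not move with Zic1 past the threshold: 0 of its 19 measured genes passed in any of the 5 comparisons by edgeR, with 4 under 0.05 unadjusted for morphine in water mice (22.7% of all genes) and 6 for antibiotics under saline (17.3% of all genes). DESeq2 called 0 and 2 of them in those comparisons and limma-voom 0. Its median log2 change was 0.21 for morphine in water mice and 0.19 for antibiotics under saline, beside 0.00 for all genes in both. Markers of oligodendrocytes moved in the same comparisons. Of 14 measured, 10 fell for antibiotics under saline, beside 1.41% of all genes called, and 3 (Mbp, Mog and Cldn11) fell for morphine in water mice, beside 6.58%, and their summed level was 5670 to 6679 CPM in Abx_Saline and 5767 to 6777 CPM in H2O_Morphine, against 6799 to 7848 CPM in H2O_Saline. Their part in the Zic1 values was not tested. The summed striatal list ran from 7246 to 15234 CPM in Abx_Saline and from 9094 to 14604 CPM in H2O_Morphine, against 11664 to 16967 CPM in H2O_Saline.

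Among the remaining 31 cortical genes the share called was close to that over all genes for morphine in water mice (2 of 31, beside 6.58%) and below it for antibiotics under morphine (2 of 31, beside 18%). With morphine in water mice 2 fell: Lamp5, which also marks interneurons (log2 change -0.46 ± 0.13, SE as for the changes that follow, edgeR adjusted p = 0.0414), and Kcnh3, a potassium channel subunit (-0.27 ± 0.06, 0.0118). With antibiotics under morphine 1 rose, Kcnh3 (0.21 ± 0.06, edgeR adjusted p = 0.0247), and 1 fell, Tle4, a co-repressor of deep cortical layers and of striatum (-0.34 ± 0.08, 0.00611). With Slc17a7, Lamp5 had r = -0.49, Tle4 -0.51 and Kcnh3 0.36, so Lamp5 and Tle4 did not follow the cortical markers in these libraries. Lamp5 and Tle4 are named because so few passed and not by the rule for naming genes. By edgeR none passed in the other 3 comparisons (morphine in antibiotic mice, antibiotics under saline and the difference). There DESeq2 and limma-voom also called 0. Under 0.05 unadjusted were 1, 3 and 3 genes, beside 27.6%, 17.3% and 12.3% of all genes. The list's medians lay between -0.06 and 0.21.

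Genes that share the work of the transporters were listed too. Of 17 vesicular transmitter transporters and glutamate supply genes, 1 rose and 1 fell with antibiotics under morphine, where 18% of all genes were called. Slc38a2, a neutral amino acid transporter, rose (0.61 ± 0.16, edgeR adjusted p = 0.0126). Slc1a3, a glial glutamate transporter, fell (-0.19 ± 0.06, edgeR adjusted p = 0.0289). Both are named for the small count. By edgeR, DESeq2 and limma-voom none passed elsewhere. In edgeR 4, 1, 3 and 1 were under 0.05 unadjusted there, beside 22.7%, 27.6%, 17.3% and 12.3% of all genes. The order is morphine in water mice, morphine in antibiotic mice, antibiotics under saline and the difference. Of 12 zinc transporters and metallothioneins, 1 fell with morphine in water mice (Mt1), where 6.58% of all genes were called. With morphine in antibiotic mice, where 13% were, 2 rose (Slc30a4 and Slc30a7) and 1 fell, Mt3, a brain metallothionein (-0.23 ± 0.05, edgeR adjusted p = 0.00299). With antibiotics under morphine, where 18% of all genes were called, 2 rose (Slc30a4 and Mt1) and 2 fell (Slc30a10 and Slc39a10). By edgeR, DESeq2 and limma-voom none passed for antibiotics under saline or for the difference. In edgeR 3 and 1 of the 12 were under 0.05 unadjusted there, beside 17.3% and 12.3% of all genes. Of the vesicular list, Gad1 and Gad2, which make GABA, each had r = -0.72 with Slc17a7.

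Markers of further neighbouring or resident cells are given by list. Of 28 striatal projection neuron genes none passed in any comparison by edgeR, DESeq2 or limma-voom, and of 9 choroid plexus and ependyma genes none did. Of all genes, edgeR called 0.467% to 18% per comparison. Counted over the 5 comparisons, 6 and 8 of the edgeR results of these 28 and 9 genes were under 0.05 unadjusted. Over all genes that share was 12.3% to 31.3% per comparison. Of 16 olfactory neuroblast genes edgeR called 1 for antibiotics under saline, beside 1.41% of all genes. It was Sox11, which rose (0.50 ± 0.11, edgeR adjusted p = 0.0262). In that comparison 10 of the 16 were under 0.05 unadjusted, beside 17.3% of all genes. The list's median log2 change there was 0.46, beside 0.00 for all genes. DESeq2 called 2 of the 16 there and limma-voom 1. Over the 5 comparisons DESeq2 made 6 calls for this list, limma-voom 2 and edgeR 1. Of 10 thalamic and hypothalamic genes 1 fell with morphine in antibiotic mice, where 13% were called (Lef1, -0.58 ± 0.15, edgeR adjusted p = 0.0147). Of 17 striatal interneuron genes 1 rose and 2 fell with morphine in water mice, where 6.58% were called. Nos1 rose (0.41 ± 0.08, edgeR adjusted p = 0.00614), and Sst (-0.30 ± 0.06, 0.00829) and Npy (-0.28 ± 0.08, 0.0357) fell. Of the 14 oligodendrocyte genes, 3 rose (Mobp, Cldn11 and Mal) and 2 fell (Gjb1 and Ugt8a) with morphine in antibiotic mice. Of all genes, 13% were called there. With antibiotics under morphine 6 of the 14 fell, beside 18% of all genes called. For the difference between the morphine changes 1, Cldn11, was called and positive, beside 0.467% of all genes called.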

How the data were processed

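RNA of mouse accumbens was extracted with TRIzol and copied to cDNA with the SMARTer kit, per the labels. The authors deposited raw counts per gene for 22 libraries, made with FastQC, STAR 2.4.0 and edgeR per the submitters' processing notes. Genome build, annotation and strand setting: not given in the sources used here. Of 24066 entries in the deposited count table, 24061 are genes. The others are summary entries, which held 20.6% to 26.4% of a library's counts and were left out. Spreadsheet software changed 27 names to dates, and these genes are not named.

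The 9 genes and the lists were chosen with earlier results of these data known. Genes were kept with filterByExpr by group, scaled by TMM and fitted in 1 model of 4 groups (edgeR 4.0.16, R 4.3.3, robust quasi-likelihood F-test, two-sided). Limma 3.58.1 and DESeq2 1.42.0 served as alternatives, beside other scalings, filters, samples in the fit, a replicate block and leaving out each library. Log2 CPM used a prior count of 2. All 9 genes were named, as were the 8 genes most like Slc17a7, Slc17a6 and Zic1, the 4 least like Slc17a7, and up to 4 abundant genes per list. Some genes that meet this rule are not reported here. The labels give no batch. The labels do not say whether replicate numbers shared between groups pair libraries. Of 25 same-numbered pairs 8 had a correlation over 0.1 (median 0.02, highest 0.35). The median of the 156 other pairs was -0.01. Those over 0.1 were not counted among the other pairs, so this does not settle whether the numbers pair libraries. In all 50 pairs of libraries within groups, counts differed beyond sampling noise (chi-square of 3.17 to 23.0 per gene). Tested on simulated counts of 14564 genes for morphine against saline in water mice, the fit recovered 34%, 80%, 82% and 100% of genes changed 1.25, 1.5, 2 and 3-fold, with 7 false calls. The changed genes were drawn at random from all genes tested. The 9 markers had a median standard error of 0.85 in that comparison, against 0.0892 over all genes, so these rates do not hold for them. Limits on a count of 0 use 3 counts and cover counting error alone.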

Additional observations from a re-analysis of the deposited data

Results flagged for a closer look

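In 11 of 36 sets of values (9 genes in 4 groups), 1 library lay far above the rest of its group, where chance gives about 1 in 20 if values are normally distributed. CPM of these genes are strongly skewed, so that rate does not hold here. On the log2 scale, a setting chosen after seeing the data, 2 sets were past the same limit, both for a low value in H2O_Saline replicate 4 (Slc17a7 and Tbr1), and none of the 11 was. All 11 belonged to 2 libraries and to cortical markers, which vary together and so are not separate events. In H2O_Morphine replicate 4, Slc17a7 was at 986 CPM (next highest 124), Neurod2 at 42.5 (3.22), Neurod6 at 27.3 (2.47), Tbr1 at 74.3 (11.1), Emx1 at 6.91 (0.754) and Slc30a3 at 45.3 (3.44). In Abx_Saline replicate 5, Neurod2 was at 72.1 CPM (next highest 19.7), Neurod6 at 34.3 (11.2), Emx1 at 7.79 (3.23), Fezf2 at 10.7 (5.50) and Slc30a3 at 67.1 (26.8).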

How the results depend on the processing

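Directions of change were kept throughout for antibiotics under morphine (0 of 72 values under other settings and 0 of 90 with a library left out had the opposite sign). Over all 45 changes (9 genes in 5 comparisons), 20 of 351 values under other settings and 96 of 594 values with a library left out had the opposite sign, and the smallest adjusted p among them was 0.212. Of these, 7 and 41 were of the difference between the morphine changes. Only reversals of changes named in the text are listed here. With the replicate block, for which the labels name no pairing, Neurod2 with morphine in water mice was -0.20 and Slc17a6 with antibiotics under saline 0.30. With limma-voom, Neurod2 with morphine in water mice was -1.90, and with morphine in antibiotic mice Slc17a6 was 0.00 (-0.00209) and Zic1 0.0442. With a library left out, the log2 change ran from -2.44 to 0.13 for Slc17a7 and from -2.58 to 0.44 for Neurod2 with morphine in water mice. With morphine in antibiotic mice it ran from -0.14 to 0.87 for Slc17a7, from -0.19 to 0.22 for Slc17a6 and from -0.13 to 0.11 for Zic1, and with antibiotics under saline from -0.10 to 0.96 for Slc17a7. Without the 2 farthest libraries, r was -0.00399 (Slc17a7 with Slc17a6), -0.0491 (Slc17a7 with Zic1), -0.0877 (Slc17a6 with Neurod2), -0.0642 (Slc17a6 with Neurod6) and -0.0196 (Slc17a6 with Emx1).

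Counts over all genes past the threshold moved too, and the cause was not tested. With the replicate block they were 281 for morphine in water mice (959 without it), 105 for antibiotics under saline (205) and 10 for the difference (68). In the groups compared alone they were 1187 for morphine in antibiotic mice (1900) and 67 for antibiotics under saline. With DESeq2 they were 420 for antibiotics under saline and 181 for the difference. With a library left out, they ran from 509 to 880 for morphine in water mice, 1084 to 2048 in antibiotic mice, 48 to 409 for antibiotics under saline, 1877 to 2748 under morphine and 28 to 100 for the difference. Of the 9 genes, 1 passed for morphine in water mice in the groups compared alone and in DESeq2, and 1 for antibiotics under saline in DESeq2. With a library left out, 0 to 1 passed for antibiotics under saline, 0 to 3 under morphine and 0 elsewhere. Low counts limit Emx1, Neurod2, Neurod6 and Slc30a3, which had 0 to 9 counts in H2O_Morphine replicates 2 and 6 and H2O_Saline replicate 4. Those libraries held 9490687 to 11995527 counts assigned to genes. The library with the fewest, Abx_Saline replicate 5 with 9357299, was the highest for all 7 cortical markers.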
